A study of Homo sapiens with 6 samples.

Results

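The genes described here are the 8 that encode the best known receptors, caspases and caspase regulators of apoptosis: TNFRSF10A, TNFRSF10B, FAS, CASP8, CASP9, CFLAR, XIAP and APAF1. They were taken as a list of names, with no threshold on their values. Each was found in the deposited tables by its Ensembl identifier, and where an identifier stood on several rows the row with most reads was taken. All 8 were found among 39168 identifiers, and all 8 were among the 12821 rows with enough reads to test.

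CAL62 is an established human anaplastic thyroid carcinoma (ATC) cell line, given in the labels as wild type. Erianin is a bibenzyl compound from Dendrobium orchids. Cells received either erianin at 50 nM or a matching amount of the solvent DMSO for 48 h, in the same serum-containing medium. Each treatment had 3 RNA-seq libraries, which the submitters describe as replicate experiments; whether these were separate cultures is not stated, so p-values measure the spread between these libraries, which may be technical. The libraries held 25776301 to 34107727 reads on named rows. All results come from 1 cell line, 1 dose and 1 time, and they are levels of RNA, not of protein or of cleaved caspases. In bulk libraries, fewer cells that express a gene and less of its RNA per cell cannot be told apart.

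Apoptosis is started by 2 routes. In the extrinsic route, ligands such as TRAIL and FAS ligand bind death receptors on the cell surface, the adaptor FADD is recruited, and caspase-8 is activated in a complex that its catalytically inactive relative c-FLIP (CFLAR) can block. In the intrinsic route, cytochrome c leaves the mitochondria and joins APAF1 in the apoptosome, which activates caspase-9. Both routes lead to the executioner caspases, and XIAP binds and inhibits caspase-9 and some of the executioners. The study asked which death pathways erianin engages in ATC cells, and the comparison below asks whether the RNA of this machinery differed between the groups.

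The library labelled DMSO replicate 3 stood apart. Its distance to the other DMSO libraries was 64.1 and 62.9 (root sum of squared log2 differences over tested rows), against 37.2 between DMSO replicates 1 and 2 and 28.2 to 29.01 among the erianin libraries. With it, the biological coefficient of variation over all rows was 0.139, and without it 0.0421. Values without this library are therefore given beside those with all 6 for the 8 genes and their ratios. For the other genes of the pathway they are given only in part, and where none is given the value may still differ. Of 7 thyroid lineage markers, 2 were above 1 CPM (counts scaled to the library total): PAX8, at 643 to 739 CPM in DMSO and 419 to 433 CPM in erianin libraries, and FOXE1, while TSHR and NKX2-1 were listed at 0. Of 6 markers of other cell types, only COL1A1 was above 1 CPM. The summed level of these 6 was 32.2 to 36.4 CPM in DMSO and 27.2 to 29.8 CPM in erianin libraries, and its part in the results was not tested.

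None of the 8 genes differed between erianin and DMSO past an adjusted p of 0.05 by edgeR's quasi-likelihood test (Benjamini-Hochberg over 12821 rows), where 14.9% of all rows did, 7.22% higher and 7.69% lower with erianin. DESeq2 also called 0 of 8, where it called 2648 of 14902 rows. At an unadjusted p under 0.05, edgeR listed 3 of 8 (FAS, CFLAR and APAF1) against 30.9% of all rows. DESeq2 listed 2, for which no share of all rows was computed. The normalised counts of the groups did not overlap for 3 of 8 (CASP8, CFLAR and APAF1), against 38.7% of all rows. The median log2 fold change of the 8 was 0.11 and the median of its absolute values was 0.16, against 0.00 and 0.22 over all rows. With 8 genes, shares of this size are near those of all rows, and nothing is read from them about the 8.

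Without DMSO replicate 3, 4 of 8 passed the test, against 55.2% of all 13053 rows then tested. FAS, APAF1 and CFLAR were the 3 called higher, where 27.5% of all rows were, and CASP8 was the 1 called lower, where 27.7% were. CFLAR and APAF1 were no longer called when the trend of the read counts with transcript GC content was also removed. FAS and CASP8 then passed the test, against 49.4% of all rows. With the GC trend removed and all 6 libraries kept, CASP8 alone of the 8 passed, against 23.0% of all rows. FAS and CASP8 were thus the genes called in both fits without DMSO replicate 3, and neither was called with all 6 libraries and no GC correction.

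**Figure D1:**
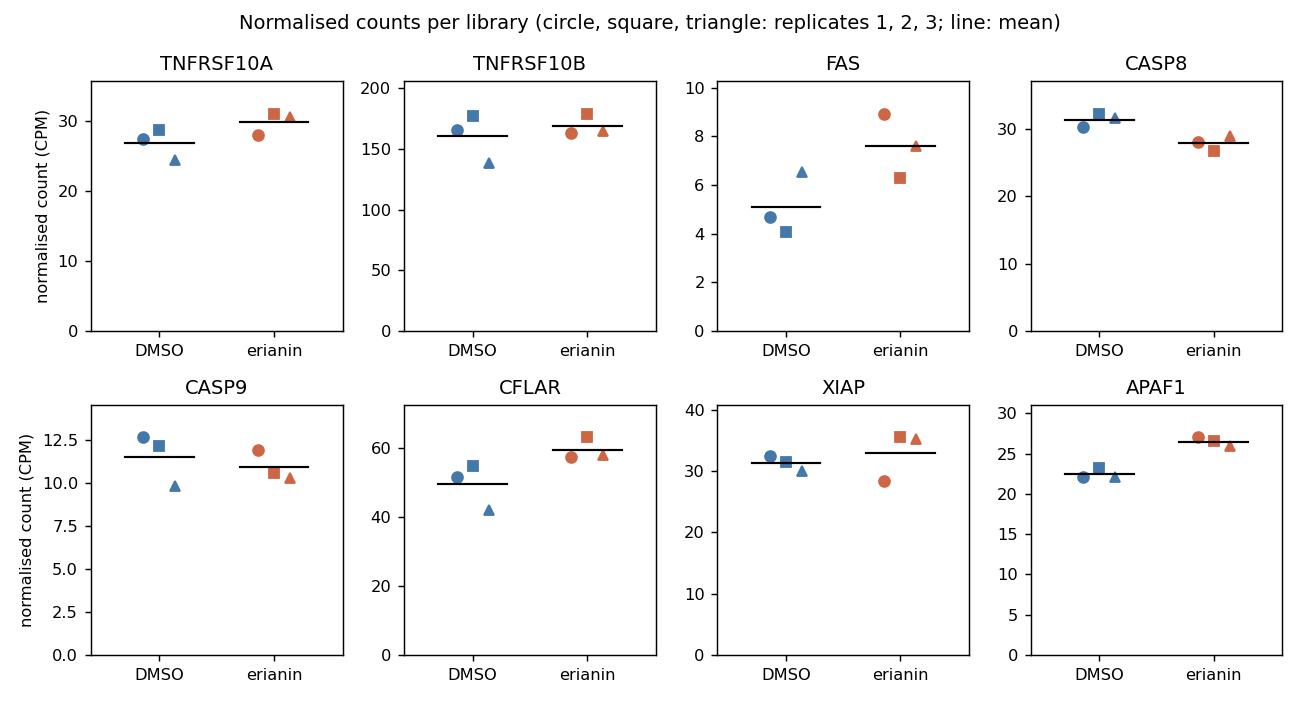
Normalised counts (CPM, TMM-scaled) of the 8 genes in each library, with DMSO libraries in blue and erianin libraries in orange; circles, squares and triangles are replicates 1, 2 and 3, lines are group means, and every axis starts at 0. The groups are separate for CASP8, CFLAR and APAF1 and overlap for the other 5, and the DMSO triangle is the highest DMSO value for FAS and the lowest for TNFRSF10A, TNFRSF10B, CASP9, CFLAR and XIAP.

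FAS, the receptor of FAS ligand, had the largest fold change of the 8 in the fit with all 6 libraries. Its normalised counts were 4.68, 4.07 and 6.52 CPM in DMSO replicates 1 to 3 and 8.93, 6.30 and 7.59 CPM in the erianin replicates. All erianin values were above those of DMSO replicates 1 and 2, and erianin replicate 2 lay just under DMSO replicate 3. The group means were 5.09 ± 1.28 and 7.61 ± 1.32 CPM (SD, n = 3 libraries), with a log2 fold change of 0.58 (SE 0.21, 95% interval 0.08 to 1.08, edgeR adjusted p = 0.113). Without DMSO replicate 3 the log2 fold change was 0.80 (adjusted p = 4.01e-05), and with the GC trend removed as well it was 0.54 (adjusted p = 0.00358). Over 18 alternative settings the adjusted p of FAS ran from 4.01e-05 to 0.336, and it passed the test in 2. FAS rests on 114 to 305 reads a library, the fewest of the 8. Its exons share 380 bases with ACTA2 on the opposite strand, and whether reads were counted by strand is not given in the sources used here. ACTA2 went from 4.88 ± 0.585 to 3.68 ± 0.792 CPM (log2 fold change -0.41, edgeR adjusted p = 0.197), in the other direction.

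TNFRSF10A and TNFRSF10B encode the TRAIL receptors DR4 and DR5, which carry a death domain. TNFRSF10A was at 27.5, 28.7 and 24.5 CPM in DMSO and at 28.0, 31.1 and 30.6 CPM in erianin libraries. The ranges overlapped, and the log2 fold change was 0.15 (SE 0.10, 95% interval -0.08 to 0.39, edgeR adjusted p = 0.346), or 0.08 without DMSO replicate 3 (adjusted p = 0.336). TNFRSF10B was at 166, 177 and 138 CPM in DMSO and at 163, 179 and 165 CPM in erianin libraries. Only DMSO replicate 3 lay apart from the others, and without it the direction turned, with a log2 fold change of -0.03 (adjusted p = 0.637). With all 6 libraries it was 0.07 (SE 0.10, edgeR adjusted p = 0.675). The 95% interval of the TNFRSF10B change ran from 0.892-fold to 1.24-fold, so a change of that size in either direction could not be told from none. Neither TRAIL receptor passed the test in any of the 18 alternatives, in which the smallest adjusted p was 0.0750 for TNFRSF10A and 0.197 for TNFRSF10B.

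Both receptors lie on the minus strand of chromosome 8 (GRCh38, GENCODE 29), TNFRSF10A from 23190452 to 23225126 and TNFRSF10B from 23020133 to 23069179. They belong to a cluster of related genes with the decoy receptors TNFRSF10C and TNFRSF10D, so reads from stretches they have in common could be counted for either. The ratio of TNFRSF10B to TNFRSF10A reads within a library was 6.04, 6.17 and 5.64 in DMSO and 5.82, 5.76 and 5.38 in erianin libraries. These ranges overlapped, with a log2 difference of -0.07, or -0.11 without DMSO replicate 3 (exact two-sided permutation test p = 0.3, 0.375 adjusted over 5 ratios). No difference in the balance of the TRAIL receptors was called, and 3 against 3 libraries cannot give an exact p under 0.1.

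CASP8 is the initiator caspase of the receptor complex, and CFLAR encodes c-FLIP, which competes with it there. CASP8 was at 30.2, 32.2 and 31.6 CPM in DMSO and at 28.0, 26.6 and 28.8 CPM in erianin libraries, lower in 3 of 3 with no overlap. Its log2 fold change was -0.17 (SE 0.09, 95% interval -0.37 to 0.03, edgeR adjusted p = 0.222). The change passed the test in 3 of 18 alternatives: without DMSO replicate 3 (adjusted p = 0.0424), with the GC trend removed (log2 fold change -0.31, adjusted p = 0.0446), and with both (-0.39, adjusted p = 2.24e-05). Its adjusted p over the alternatives ran to 0.871. On the deposited TPM values (a relative abundance scaled by gene length) the direction turned, to a log2 difference of 0.02, where the median of all genes was itself at 0.18, so that relative to that median CASP8 was again lower.

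CFLAR was at 51.4, 54.6 and 41.9 CPM in DMSO and at 57.3, 62.9 and 58.0 CPM in erianin libraries. It was higher in 3 of 3, with DMSO replicate 3 the lowest of all. The means were 49.3 ± 6.64 and 59.4 ± 3.08 CPM (SD, n = 3 libraries), with a log2 fold change of 0.27 (SE 0.11, 95% interval 0.0037 to 0.53, edgeR adjusted p = 0.157). Leaving out DMSO replicate 3 lowered the log2 fold change to 0.16 while its spread fell, and the adjusted p was 0.0243, the 1 call among 18 alternatives (largest 0.917). With the GC trend removed as well it was 0.01, so that little was left of the CFLAR difference. CFLAR shares exonic bases with IMPDH1P10 (1488) and CFLAR-AS1 (777), both listed at 0 reads, and 445 on its own strand with AC007283.1, which has no row in the tables, so that reads of the overlap could not be told apart.

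The CASP8 and CFLAR changes had opposite signs. The ratio of CASP8 to CFLAR reads, which does not depend on how a library is scaled, was 0.587, 0.589 and 0.755 in DMSO and 0.489, 0.423 and 0.497 in erianin libraries. All 3 erianin ratios were below all 3 DMSO ratios, a log2 difference of -0.45 with all libraries and -0.33 without DMSO replicate 3. The exact permutation p was 0.1 (0.167 adjusted over 5 ratios), the smallest this design can give, so the ratio could not have passed a threshold of 0.05.

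APAF1 is the scaffold of the apoptosome and CASP9 the initiator caspase it activates. APAF1 was at 22.0, 23.3 and 22.2 CPM in DMSO and at 27.0, 26.6 and 25.9 CPM in erianin libraries. Its groups were well apart, at 22.5 ± 0.674 and 26.5 ± 0.568 CPM (SD, n = 3 libraries), and its replicates were among the tightest of the 8. The log2 fold change was 0.24 (SE 0.09, 95% interval 0.04 to 0.44, edgeR adjusted p = 0.109), or 0.22 without DMSO replicate 3 (adjusted p = 0.0144). On log2(TPM + 1) it was 0.34, where the median of all genes was itself at 0.18. It also passed in that fit (limma adjusted p = 0.0381), as did 19.7% of all rows. With the GC trend removed it was 0.06 (adjusted p = 0.752, the largest over 18 alternatives), and without DMSO replicate 3 as well the direction turned, at -0.07. APAF1 has the lowest transcript GC content of the 8, at 40.9%, and FAS, at 42.0%, the next. CASP9 has the highest, at 56.1%. APAF1 shares 750 exonic bases with ANKS1B, which was at 0.664 CPM in DMSO and 0.471 CPM in erianin libraries.

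CASP9 did not separate the groups. It was at 12.6, 12.1 and 9.79 CPM in DMSO and at 11.9, 10.6 and 10.3 CPM in erianin libraries, a log2 fold change of -0.08 (SE 0.13, 95% interval -0.39 to 0.24, edgeR adjusted p = 0.748), or -0.19 without DMSO replicate 3 (adjusted p = 0.128). It passed the test in none of the 18 alternatives, and on the TPM values its sign turned, to 0.10, where the median of all genes was 0.18. The ratio of APAF1 to CASP9 reads was 1.74, 1.92 and 2.26 in DMSO and 2.27, 2.51 and 2.52 in erianin libraries. These ranges did not overlap, although DMSO replicate 3 came close to erianin replicate 1 (log2 difference 0.31, or 0.41 without DMSO replicate 3, exact permutation p = 0.1, adjusted 0.167). With the GC trend removed, the fold changes of the pair lay closer together, at 0.06 for APAF1 and -0.10 for CASP9 with all 6 libraries and at -0.07 and -0.16 without DMSO replicate 3.

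XIAP, the inhibitor of caspase-9 and of some executioners, was at 32.6, 31.5 and 30.0 CPM in DMSO and at 28.4, 35.5 and 35.2 CPM in erianin libraries. Erianin replicate 1 was the lowest of the 6 libraries and the other two erianin libraries the highest. The log2 fold change was 0.08 (SE 0.11, 95% interval -0.18 to 0.34, edgeR adjusted p = 0.698), or 0.04 without DMSO replicate 3 (adjusted p = 0.678), and it turned to -0.04 with the GC trend removed. The ratio of CASP9 to XIAP reads was 0.388, 0.385 and 0.327 in DMSO and 0.418, 0.297 and 0.292 in erianin libraries, which held both the highest and the lowest value (log2 difference -0.14, or -0.22 without DMSO replicate 3, exact permutation p = 0.4). No difference in XIAP or in its ratio to CASP9 was detectable with 3 libraries a group.

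**Figure D2:**
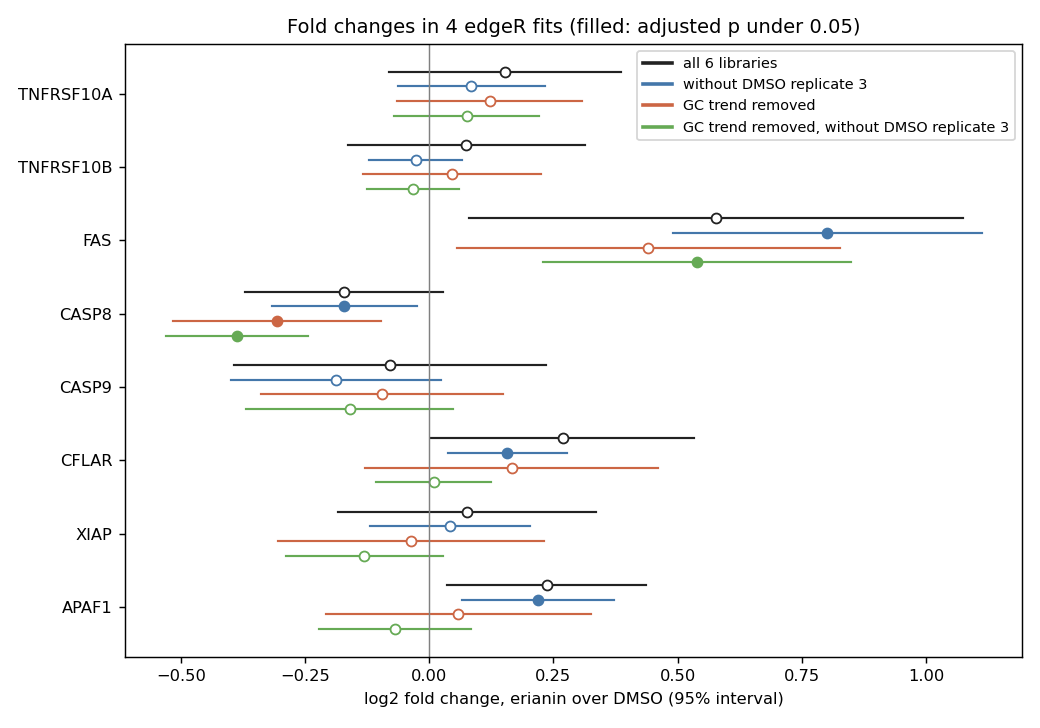
Log2 fold change of erianin over DMSO (x axis) for each of the 8 genes in 4 edgeR fits, with 95% intervals; filled points have an adjusted p under 0.05. In black, with all 6 libraries, every point is open, and only FAS and CASP8 have filled points in more than 1 fit.

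FAS, CASP8, CFLAR and APAF1 are the genes whose call turned on 1 library, and the 250 bases before their annotated start are printed to show the sequence that lies there. The sequences are RefSeq's for GRCh38.p14, 5′ to 3′ on the plus strand. Of several annotated starts the one nearest the start of the gene in GENCODE 29 was taken. The CFLAR window still lies wholly inside the GENCODE gene, which begins at 201116104. The windows of FAS and APAF1 lie for the most part inside theirs, which begin at 88990582 and 98645141, and that of CASP8 by its last bases. The promoters of TNFRSF10A and TNFRSF10B were not searched, which leaves 6 of the 8 genes. Capitals mark matches, on either strand, to 6 short motifs: the GC box GGGCGG, the AP-1 motif TGANTCA, the C/EBP-ATF composite motif TGATGNAA, the FOXO motif TGTTTAC, the TATA box TATAAA, and the NF-kB motif by name.
FAS, chr10:88990548-88990797: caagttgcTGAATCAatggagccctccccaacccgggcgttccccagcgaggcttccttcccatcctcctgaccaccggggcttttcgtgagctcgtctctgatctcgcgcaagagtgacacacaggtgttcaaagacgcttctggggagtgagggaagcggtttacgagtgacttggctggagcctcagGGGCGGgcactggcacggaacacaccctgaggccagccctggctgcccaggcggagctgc
CASP8, chr2:201233213-201233462: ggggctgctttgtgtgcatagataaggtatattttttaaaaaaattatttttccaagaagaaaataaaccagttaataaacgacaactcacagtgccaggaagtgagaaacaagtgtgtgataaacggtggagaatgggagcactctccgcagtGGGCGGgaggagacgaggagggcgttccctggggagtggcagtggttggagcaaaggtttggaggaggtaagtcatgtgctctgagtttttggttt
CFLAR, chr2:201118466-201118715: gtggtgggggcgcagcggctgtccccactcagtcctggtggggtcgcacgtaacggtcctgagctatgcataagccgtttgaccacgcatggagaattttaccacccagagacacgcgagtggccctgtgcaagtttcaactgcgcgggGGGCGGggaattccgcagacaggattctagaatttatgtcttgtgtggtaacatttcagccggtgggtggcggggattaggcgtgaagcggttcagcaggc
APAF1, chr12:98645040-98645289: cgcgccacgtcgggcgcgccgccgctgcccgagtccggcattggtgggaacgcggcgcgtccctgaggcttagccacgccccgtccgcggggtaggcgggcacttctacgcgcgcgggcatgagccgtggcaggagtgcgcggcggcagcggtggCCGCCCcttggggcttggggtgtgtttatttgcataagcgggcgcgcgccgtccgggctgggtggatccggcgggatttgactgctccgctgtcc

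Each of the 4 windows held 1 GC box, the binding motif of SP1, which 42.55% of 34943 windows of this length held. Counted from the annotated start, it began at -60 in FAS, -96 in CASP8, -101 in CFLAR and -95 in APAF1. FAS alone of the 6 searched genes held a match to the letters TGANTCA, which leave the centre base free. It was TGAATCA at -242, against 6.59% of all windows with any match to these letters. CASP9, which was not called, held 8 GC boxes. The C/EBP-ATF (3.15%), FOXO (2.98%), NF-kB (1.73%) and TATA box (10.75%) letters were in none of the 6 windows. The windows differed widely in base composition, from 45.6% GC in CASP8 to 62.8% in FAS and 73.6% in APAF1, with CFLAR at 58.8%. A match is a description of the letters and not a site in use.

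In the genome (GRCh38, GENCODE 29, plus strand) FAS runs from 88990582 to 89015785 on chromosome 10 and APAF1 from 98645141 to 98735433 on chromosome 12. CFLAR, from 201116104 to 201176687, and CASP8, from 201233443 to 201287711, are near neighbours on chromosome 2. XIAP lies on X from 123859724 to 123913979. CASP9 lies on the minus strand of chromosome 1 from 15490832 to 15526534, and it shares 106 exonic bases with CELA2B, which had few reads. TNFRSF10B shares 67 exonic bases with RHOBTB2 on the opposite strand. RHOBTB2 went from 20.2 ± 1.65 to 13.5 ± 0.451 CPM (log2 fold change -0.58, edgeR adjusted p = 0.0125), and its part in the TNFRSF10B counts was not tested. TNFRSF10A shares 266 with AC100861.1, listed at 0 reads, and 224 with TNFRSF10A-AS1, which has no row. CASP8 and XIAP share no exonic base with another annotated gene.

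Levels of different genes were compared per length, on the deposited TPM values. Over all 6 libraries TNFRSF10B was the most abundant, at 80.0 ± 11.4 TPM (SD, n = 6), and TNFRSF10A next, at 38.1 ± 5.87 TPM. CFLAR (8.05 ± 1.61 TPM), XIAP (6.87 ± 0.975 TPM) and CASP8 (6.85 ± 0.343 TPM) followed. CFLAR held place 3 in every library but DMSO replicate 3, where it held place 5. In erianin libraries it was at 9.32 ± 0.387 TPM, above XIAP (7.51 ± 0.916 TPM) and CASP8 (6.91 ± 0.370 TPM, SD, n = 3 each). XIAP and CASP8 did not differ beyond their spread over the 6 libraries, and they changed places between them. CASP9 was at 4.37 ± 0.552 TPM, APAF1 at 3.57 ± 0.599 TPM and FAS at 1.67 ± 0.565 TPM. The places of TNFRSF10B, TNFRSF10A, CASP9, APAF1 and FAS were the same in all 6 libraries, although the SDs of CASP9 and APAF1 overlapped. The TRAIL receptors thus led this group of genes with and without erianin, with TNFRSF10B at the 88.0th and FAS at the 17.6th percentile of tested rows. The TPM columns sum to 59.1% of their nominal total in DMSO replicate 3 and to at most 78.3% in the other libraries, so TPM levels between libraries are not on one scale.

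**Figure D3:**
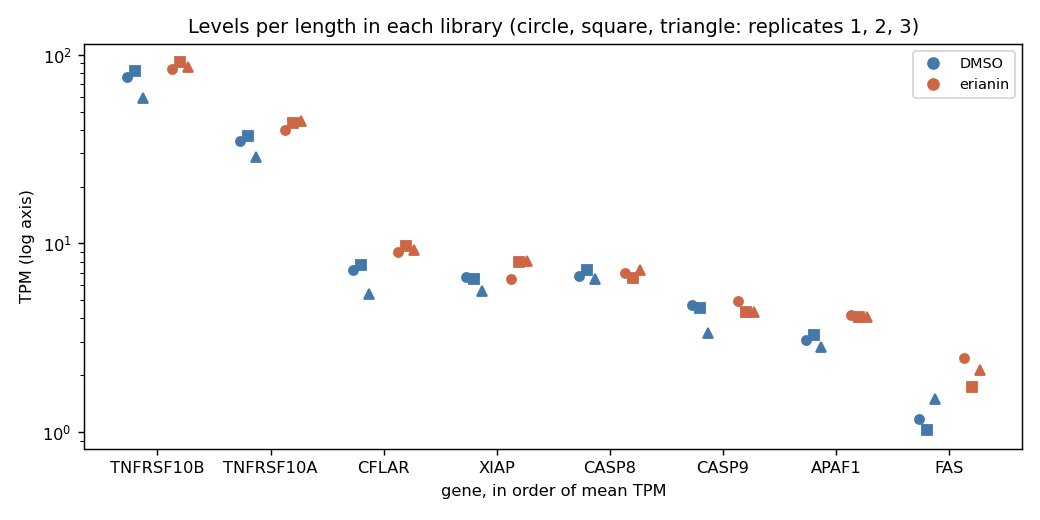
Deposited TPM values of the 8 genes in each library on a log axis, ordered by their mean; DMSO libraries in blue, erianin libraries in orange, with circles, squares and triangles for replicates 1, 2 and 3. TNFRSF10B, at 58.7 to 91.2 TPM, is above every other gene in all libraries and FAS, at 1.02 to 2.48 TPM, below every other gene.

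Of 57 other genes of the pathway, in 11 lists by role, 45 were tested, 23 of them higher and 22 lower with erianin. Past an adjusted p of 0.05, 5 rose and 5 fell, 10 of 45 in all, against 14.9% of all rows. The median log2 fold change of the 45 was 0.01. Of the 10, TNFRSF21 and DDIT3 were called in each of the 6 fits that left out 1 library, and the rest lost the call in at least 1 such fit. Over all rows, 906 of 13062 were called without DMSO replicate 1 and 902 of 13006 without DMSO replicate 2. Without erianin replicates 1, 2 and 3 they were 333 of 12960, 318 of 12913 and 310 of 12918, against 1912 of 12821 with all 6 libraries. A call lost in these fits, here and below, is thus not particular to the gene. Without DMSO replicate 3 all 10 were called, among 12 that rose and 14 that fell, 26 of 45 against 55.2% of all rows. The changes were spread over the roles, and no list moved in 1 direction in all of its members with more than 1 of them called.

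Among ligands, TNFSF10 (TRAIL) and FASLG bind the receptors above. TNFSF10 had 0 to 6 reads a library and FASLG was listed at 0, which in these tables is not read as absence. TNFSF15 was at 17.6 ± 3.08 CPM in DMSO and 19.0 ± 1.73 CPM in erianin libraries (edgeR adjusted p = 0.682). TNF was low, at 0.246, 0.185 and 0.578 CPM in DMSO and 0.878, 1.03 and 0.914 CPM in erianin libraries. All 3 erianin values were higher, but its log2 fold change of 1.46 did not pass the test (adjusted p = 0.0523). It passed without DMSO replicate 3, where the fold went from 2.75 to 4.37 (adjusted p = 0.000396), by DESeq2 (0.0338) and with the GC trend removed (0.0453). LTA had too few reads to test.

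Of the other death receptors, 3 of 4 tested changed, against 14.9% of all rows, and without DMSO replicate 3 all 4 did, against 55.2%. In the fit with a replicate block 1 of them, TNFRSF21, was called, where 745 of all 12821 rows were. TNFRSF21 (DR6) rose from 14.6, 14.8 and 16.8 CPM to 29.5, 28.3 and 29.8 CPM. All 3 erianin values were far above all DMSO values (log2 fold change 0.92, SE 0.10, edgeR adjusted p = 0.00273). TNFRSF1A, the main TNF receptor, fell from 219, 205 and 207 CPM to 155, 160 and 162 CPM (log2 fold change -0.40, SE 0.06, adjusted p = 0.00923), a call lost when any 1 erianin replicate was left out (adjusted p 0.0630 to 0.0670). NGFR, the p75 neurotrophin receptor, rose 6.49-fold (95% interval 2.66 to 15.8, adjusted p = 0.0192), but from 0.151 ± 0.153 CPM to 0.920 ± 0.197 CPM, on few reads. Leaving out DMSO replicate 1 brought its log2 fold change to 3.79, and it lost the call without DMSO replicate 2 (2.30) and without erianin replicates 1 (2.84), 2 (2.65) and 3 (2.56). TNFRSF25 was at 17.3 ± 3.06 CPM in DMSO and 14.0 ± 1.01 CPM in erianin libraries (adjusted p = 0.212, or 7.85e-05 without DMSO replicate 3), and EDAR was at or near 0. Among these receptors, TNFRSF21 and NGFR rose and TNFRSF1A fell, while DR4 and DR5 did not pass the test.

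Decoy receptors bind a ligand, TRAIL in the case of TNFRSF10C and TNFRSF10D, without passing on a death signal. TNFRSF10D rose from 68.9, 61.5 and 66.8 CPM to 86.8, 90.8 and 85.6 CPM (log2 fold change 0.42, SE 0.08, edgeR adjusted p = 0.0144), a call lost when DMSO replicate 2 or any 1 erianin replicate was left out (adjusted p 0.0546 to 0.0873). TNFRSF10C had 0 to 6 reads a library, TNFRSF6B was listed at 0, and TNFRSF11B was at 3.54 ± 1.08 and 2.66 ± 0.587 CPM (adjusted p = 0.325). The ratio of decoy reads (TNFRSF10C plus TNFRSF10D, nearly all from TNFRSF10D) to those of TNFRSF10A plus TNFRSF10B was 0.356, 0.299 and 0.410 in DMSO and 0.454, 0.433 and 0.439 in erianin libraries. It was higher in all 3 erianin libraries, by a log2 difference of 0.33, or 0.44 without DMSO replicate 3 (exact permutation p = 0.1, adjusted 0.167). Per length, on TPM, the same ratio was 1.04 ± 0.155 in DMSO and 1.29 ± 0.0366 in erianin libraries (SD, n = 3 each).

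**Figure D4:**
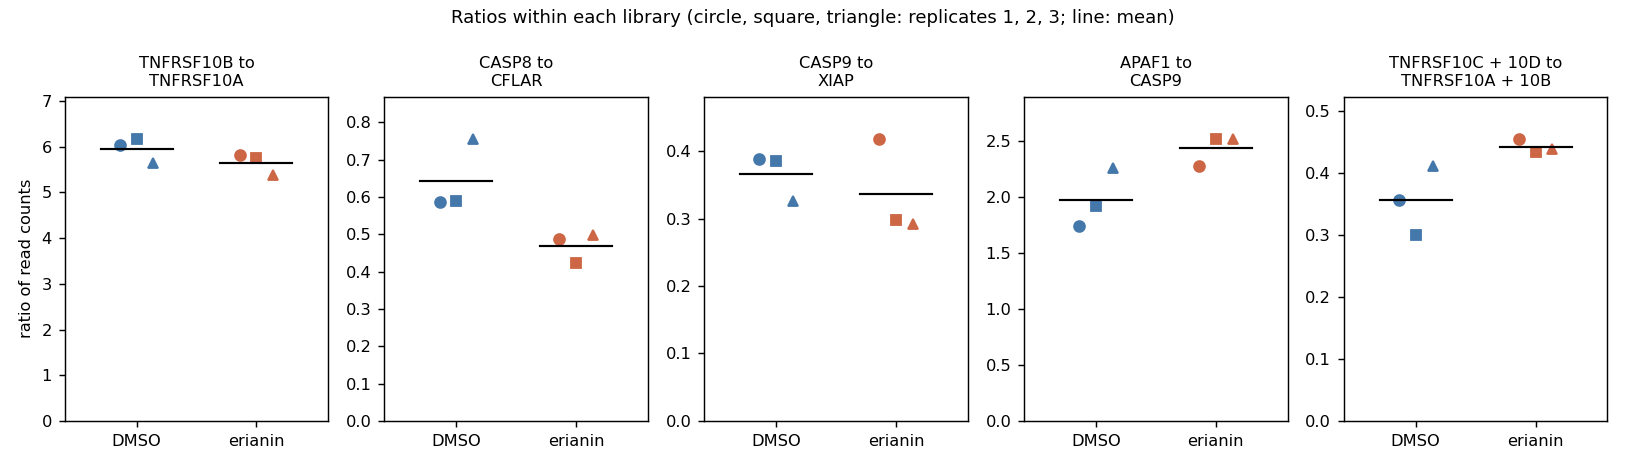
Ratio of read counts of paired genes within each library, by group; circles, squares and triangles are replicates 1, 2 and 3 and lines are group means, and each axis starts at 0. The groups are separate for CASP8 to CFLAR (lower with erianin), APAF1 to CASP9 and the decoy ratio (both higher), where the exact p is the smallest possible, 0.1, and overlap for the other two ratios.

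Of 8 adaptors and receptor complex genes 1 changed, against 14.9% of all rows, and 6 did without DMSO replicate 3, 1 higher and 5 lower, against 55.2%. RIPK1, the kinase that links death receptors to survival signalling and necroptosis, fell from 39.0, 40.1 and 45.3 CPM to 28.7, 26.6 and 26.5 CPM (log2 fold change -0.61, SE 0.10, edgeR adjusted p = 0.00875), a call lost without erianin replicate 2 (0.0619) or 3 (0.0645). DAXX was at 119 ± 4.78 and 133 ± 1.62 CPM (adjusted p = 0.161, or 0.00122 without DMSO replicate 3). TRAF2 was at 73.0 ± 12.6 and 82.3 ± 1.84 CPM, and FAF1 at 76.1 ± 4.43 and 78.6 ± 2.04 CPM, both with overlapping groups. FADD, the adaptor that brings CASP8 to the receptors, was at 27.1, 29.2 and 15.6 CPM in DMSO and 18.4, 18.0 and 19.8 CPM in erianin libraries. DMSO replicate 3 was lower than all others, so that the log2 fold change of FADD was -0.35 with all libraries (adjusted p = 0.325) and -0.59 without it (adjusted p = 1.11e-07), and the adjusted p was 0.321 by DESeq2 and 0.156 with the GC trend removed.

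The executioner caspase CASP6 was at 10.9 ± 1.83 and 11.6 ± 0.590 CPM, a log2 fold change of 0.09, or -0.02 without DMSO replicate 3. Of the other initiator caspases, CASP2 (log2 fold change -0.16, adjusted p = 0.338) and CASP10 (0.25, adjusted p = 0.258) did not pass. CASP2 did without DMSO replicate 3 and with the GC trend removed (-0.17, adjusted p = 0.0234). Cytochrome c (CYCS) was at 52.2 ± 8.89 and 71.4 ± 3.84 CPM (log2 fold change 0.45, adjusted p = 0.0567). It passed by DESeq2 (0.0259) and without DMSO replicate 3 (log2 fold change 0.32, 2.27e-05), but not with the GC trend removed as well (0.09, 0.202). The apoptosome inhibitor AVEN and CARD8 were at -0.28 and -0.27 and did not pass, although AVEN did without DMSO replicate 3 (-0.42, 7.98e-05). CARD8 passed with the GC trend removed, both with all 6 libraries (-0.37, adjusted p = 0.0254) and without DMSO replicate 3 (-0.34, adjusted p = 0.00164).

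BIRC3 (cIAP2), an inhibitor of apoptosis protein like XIAP, rose from 24.8, 23.3 and 33.9 CPM to 44.5, 40.8 and 46.6 CPM (log2 fold change 0.69, SE 0.15, edgeR adjusted p = 0.0245). It was 0.87 without DMSO replicate 3 and lost the call when any 1 of the other 5 libraries was left out (adjusted p 0.0741 to 0.114). BIRC2 (cIAP1), BIRC5 (survivin) and BIRC6 were at log2 fold changes of 0.15, 0.14 and -0.07, with overlapping groups. Without DMSO replicate 3 the direction of BIRC5 and BIRC6 turned, to -0.04 and 0.12 (edgeR adjusted p = 0.504 and 0.0845). With the GC trend removed BIRC6 was at -0.22 with all 6 libraries (adjusted p = 0.104). It was then at -0.18 without DMSO replicate 3, where it passed as lower (adjusted p = 0.00923). Of the IAP antagonists, HTRA2 was at 41.1 ± 10.5 and 50.0 ± 2.48 CPM (adjusted p = 0.324), DIABLO was near 1 CPM, and XAF1 was near 0. BIRC3 was the 1 gene of this family, XIAP included, that passed the test with all 6 libraries, and without DMSO replicate 3 BIRC2 passed too (0.26, adjusted p = 0.0015), but not with the GC trend removed as well (adjusted p = 0.995).

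Of 9 caspase substrates tested, 2 fell, against 7.69% of all rows, and without DMSO replicate 3 they were 4, against 27.7%, while 1 rose. In the fit with a replicate block 0 were called, where 745 of all 12821 rows were, so nothing is read from the 0. DFFA, the inhibitor of the DNA-cutting caspase-activated nuclease, went from 181, 178 and 184 CPM to 134, 143 and 142 CPM (log2 fold change -0.38, SE 0.06, edgeR adjusted p = 0.0115). BID, which carries the caspase-8 signal to the mitochondria, went from 52.2 ± 1.52 to 41.5 ± 1.30 CPM (log2 fold change -0.33, adjusted p = 0.0296). DFFA lost the call when any 1 erianin replicate was left out (adjusted p 0.0662 to 0.0739) and BID when any 1 library but DMSO replicate 3 was (adjusted p at least 0.0820). LMNA, SPTAN1 and PARP1 were at log2 fold changes of 0.01, -0.17 and -0.05 and did not pass. Without DMSO replicate 3, LMNA (-0.13, adjusted p = 0.00452) and SPTAN1 (-0.15, adjusted p = 0.00243) did, LMNA not with the GC trend removed as well (adjusted p = 0.375). GSDME, a gasdermin that can form pores in the cell membrane, was listed at 0 in all 6 libraries, as were SEPTIN4 and all 17 nuclear genes of ATP synthase subunits that every cell uses, so a listing at 0 in these tables is not read as absence of the RNA.

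Of 8 transcription factors known to bind genes of this group, 1 rose and 1 fell, against 14.9% of all rows in either direction, and without DMSO replicate 3, 3 rose and 2 fell, against 55.2%. DDIT3 (CHOP), a stress-induced factor known to raise TNFRSF10B, rose from 39.3, 38.5 and 26.2 CPM to 81.5, 84.9 and 82.5 CPM (log2 fold change 1.26, SE 0.15, edgeR adjusted p = 0.0041). ATF4 fell from 816 ± 50.7 to 646 ± 15.5 CPM (log2 fold change -0.34, adjusted p = 0.0233), a call lost when any 1 library but DMSO replicate 3 was left out (adjusted p 0.0528 to 0.120). JUN, RELA and SP1 were at log2 fold changes of 0.23, -0.18 and -0.26 and did not pass, although JUN did without DMSO replicate 3 (0.16, adjusted p = 0.00117) and with the GC trend removed (0.21, adjusted p = 0.0361). With all 6 libraries and no GC offset, TNFRSF10B was at 0.07, FAS at 0.58 and APAF1 at 0.24.

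**Figure D5:**
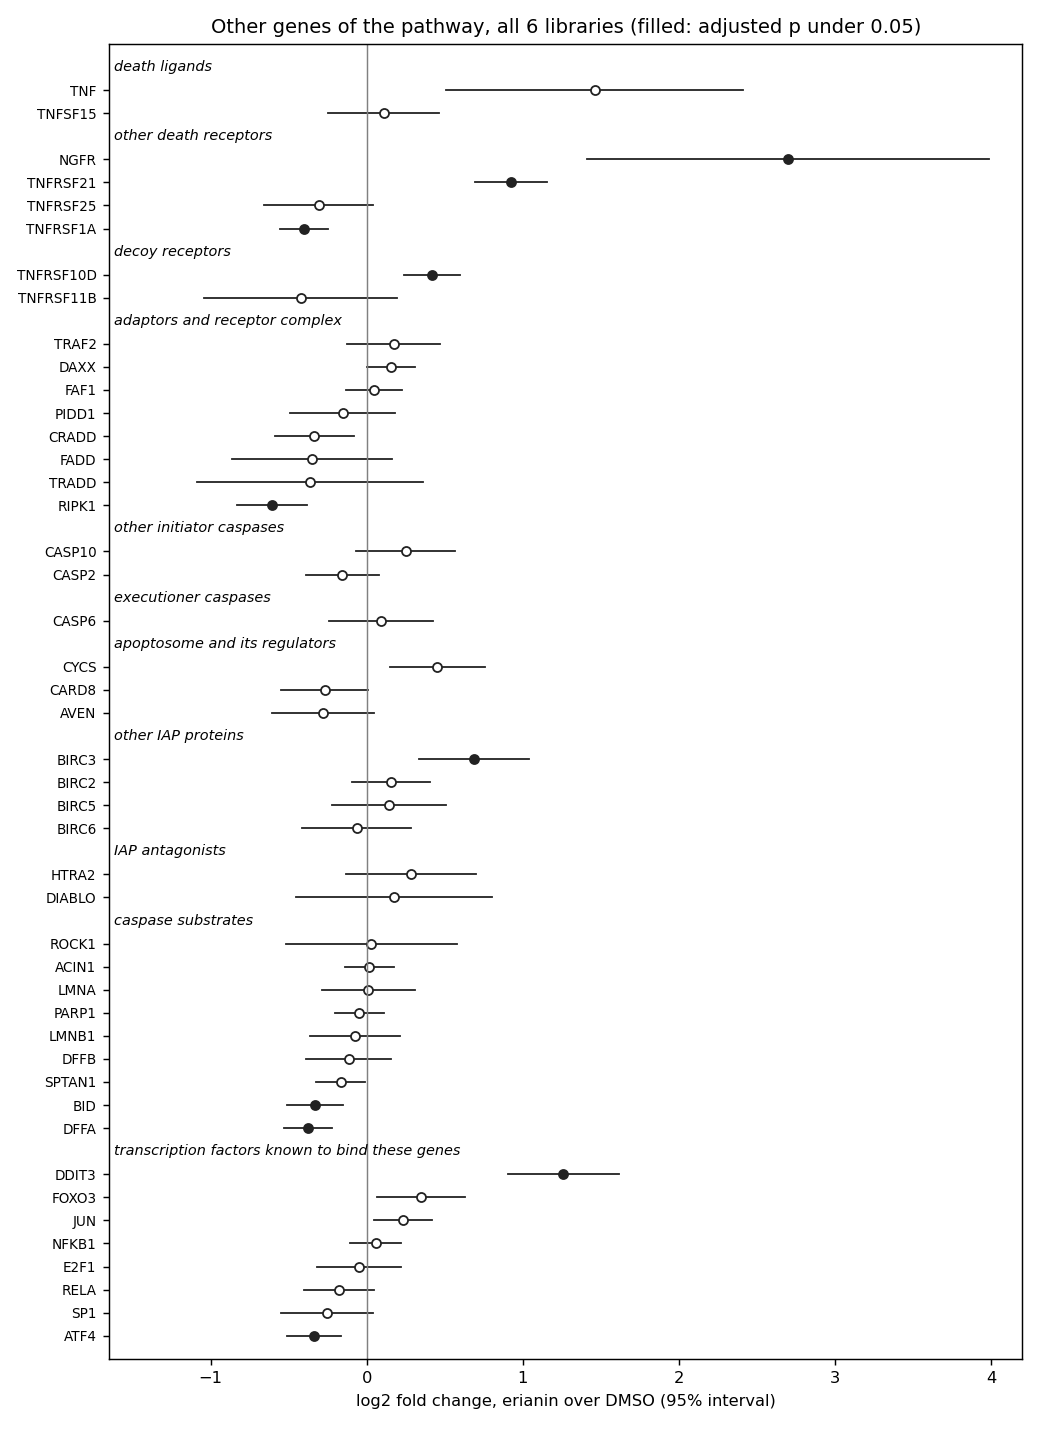
Log2 fold change of erianin over DMSO (x axis) with 95% intervals for the 45 tested pathway genes in the fit with all 6 libraries, grouped by role; filled points have an adjusted p under 0.05. The 10 filled points lie on both sides of 0, from RIPK1 on the left to NGFR, whose interval is the widest, and DDIT3 on the right.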

How the data were processed

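RNA of CAL62 cells (3 DMSO and 3 erianin libraries) was sequenced on the BGISEQ-500. The authors deposited 2 tables, one of raw counts and one of TPM values for the same genes. Their processing notes name fastp 0.23.2, STAR 2.7.10, featureCounts 2.0.1, StringTie 2.2.1 and GRCh38 (hg38), with no role or order given. Of 65807 rows, 26480 had no identifier (0.00385% to 0.00515% of reads) and were left out.

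Counts were tested here with edgeR 4.0.16 in R 4.3.3 (TMM factors, filterByExpr, quasi-likelihood test, two-sided, no covariates, Benjamini-Hochberg over 12821 rows). A gene was called at an adjusted p under 0.05. CPM are counts scaled to the TMM-adjusted library total. Alternatives were DESeq2 1.42.0, other factors and filters, limma 3.58.1 on log2(TPM + 1) or log2(TPM + 0.1), a replicate block, a GC offset (loess with a span of 0.5 on transcript GC from GENCODE 29, known for 12686 rows) and each library left out. Leaving out DMSO replicate 3 together with the GC offset was added after seeing the data. Ratios of counts within a library were compared with exact permutation tests. The scripts were checked on simulated data.

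The 8 genes and the lists were chosen with earlier results of these data known. Named were all 8 genes and, of each list, every called gene and up to 3 others by mean CPM. TNFSF10, FASLG, FADD, GSDME, SEPTIN4 and TRADD were added after their values were seen. The genes most like a called member were to be named, and no member was called with all 6 libraries. Some genes and 1 motif of the planned lists are not reported here and were left out of all list counts.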

Additional observations from a re-analysis of the deposited data

How the results depend on the processing

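For the 8 genes and the 10 called pathway genes, 250 values under an alternative kept their direction and their side of the threshold, 50 kept the direction but were no longer called, 9 became called and 12 reversed. Members called higher with erianin, 0 with all 6 libraries, were 1 on log2(TPM + 1), 1 on log2(TPM + 0.1), 3 without DMSO replicate 3 (0 to 3 over the 6 fits that leave out a library) and 1 without it with the GC offset. Members called lower, also 0, were 1 with the GC offset, 1 without DMSO replicate 3 (0 to 1 over these fits) and 1 with both. Reversed log2 fold changes were TNFRSF10B without DMSO replicate 3 (-0.027, with a range of -0.027 to 0.15 over the fits that leave out a library) and with the GC offset as well (-0.033), CASP8 (0.023, 0.026 and 0.023) and CASP9 (0.10, 0.12 and 0.10) in the 3 TPM fits, in which the median of all genes was 0.18, 0.20 and 0.12, XIAP with the GC offset (-0.036), with the block and GC offset (-0.037) and without DMSO replicate 3 with GC offset (-0.13), and APAF1 in the last of these (-0.068). The cause was not tested.

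Pathway genes called higher, 5 in the report, were 8 with upper-quartile factors, 12 in each TPM fit, 2 to 12 over the leave-one-out fits and 10 without DMSO replicate 3 with the GC offset. Those called lower, 5 in the report, were 1 in each TPM fit, 0 to 14 over the leave-one-out fits and 17 in the last. The 12 and 14 came without DMSO replicate 3. Those called higher were 4 without DMSO replicate 1 and 2 without DMSO replicate 2 or any erianin replicate, and those called lower were 3 without DMSO replicate 1 or 2 and 1, 0 and 0 without erianin replicates 1, 2 and 3. Over all rows, 1918 of 12821 were called with upper-quartile factors, 7201 of 13053 without DMSO replicate 3 and 6447 with the GC offset as well. The other leave-one-out fits called 310 to 906. The 3 TPM fits called 2297 of 11670, 2241 of 11670 and 2250 of 18052. Their medians of all genes were 0.18, 0.20 and 0.12, so the excess of higher calls there is not read as a shift of the pathway.

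Same-numbered libraries did not deviate together (correlations 0.00138, 0.0253 and -0.0329), so the numbers are not read as pairs. With a replicate block, 3 pathway genes were called higher and 1 lower, no member was called, TNFRSF1A, NGFR, TNFRSF10D, DFFA, BID and ATF4 lost the call, and calls over all rows went from 1912 to 745. The ratios within a library were rerun on TPM, with same-numbered libraries paired, and with each library left out. Their log2 differences moved by less than 1 SD, taken as the larger group SD, which includes DMSO replicate 3. The paired test keeps the difference as it is, and on TPM a ratio of single genes cannot move. Neither therefore shows that such a ratio is stable, and no GC offset was run on the ratios. With 3 libraries a group, the counts of FAS and NGFR limit what could be seen, and p-values rest on the spread between 3 libraries a group in 1 cell line.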

Other observations

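Several pathway genes had their most distant value in the library labelled DMSO replicate 3, chosen here after their values were seen. TRADD, the adaptor of TNF receptor 1, was at 32.3, 34.9 and 13.9 CPM in DMSO and 19.7, 19.9 and 23.3 CPM in erianin libraries. BIRC5 (survivin) was at 111, 112 and 73.4 CPM in DMSO and 108, 112 and 108 CPM in erianin libraries, so that its erianin values matched DMSO replicates 1 and 2. ROCK1, a kinase that executioner caspases cut, was at 14.7, 13.9 and 25.8 CPM in DMSO against 18.6 ± 1.55 CPM (SD, n = 3) in erianin libraries. Among the 8 genes, DMSO replicate 3 differed from the mean of DMSO replicates 1 and 2 by 0.58 in FAS, -0.34 in CASP9, -0.34 in CFLAR and -0.31 in TNFRSF10B on the log2 scale, and by 0.02 in CASP8 and -0.03 in APAF1.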
